A study of Mus musculus with 16 samples.

Results

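Isolated spermatocytes of adult male mice lacking the microRNA miR-202 were compared with isolated wildtype spermatocytes, by RNA sequencing of 3 knockout and 3 wildtype libraries. These were 6 of the 16 libraries of the series, and 10271 of 22293 genes with a symbol of their own had an FPKM of 1 or more in at least 2 of them and were tested. FPKM, the fragments of a gene scaled to its length and to the mapped fragments of its library, sets genes of different length on the same scale. The strain was given as C57;ICR for both genotypes, and the labels name no Cre or transgene. The other libraries were isolated spermatogonia (2 knockout, 2 wildtype) and cultured spermatogonial stem cells (3 knockout, 3 wildtype), from pups of 6 to 7 days. The labels do not say how the spermatocytes were isolated or whether each library came from an animal of its own. P-values therefore measure a spread between libraries that may be technical. That spread was estimated for each gene within groups over all 16 libraries, not over the 6 spermatocyte libraries alone.

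Spermatocytes are male germ cells in meiosis. In a long prophase their chromosomes pair along the synaptonemal complex, are held together by meiotic cohesins and exchange DNA by recombination, and the meiotic divisions then give round spermatids. Pachytene spermatocytes already transcribe many genes of the later acrosome, the enzyme-filled cap of the sperm head, and of the flagellum. MicroRNAs repress messages whose 3′ untranslated region (UTR) matches bases 2 to 8 of the microRNA, the seed. Meiosis initiation and recombination are the processes named in the title.

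Both arms of the miR-202 hairpin are shown first because the candidate targets below were searched for their seeds, with let-7a for comparison; capitals mark the seed.
mmu-miR-202-3p: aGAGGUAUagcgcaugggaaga
mmu-miR-202-5p: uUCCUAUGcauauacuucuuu
mmu-let-7a-5p: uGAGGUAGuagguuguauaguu
These RefSeq sequences lie on the minus strand of GRCm38.p6, miR-202-3p at chr7:139957695-139957716, miR-202-5p at chr7:139957732-139957752 and let-7a at chr13:48538239-48538260. The full seed of miR-202-3p, bases 2 to 8, was held by 2 of 1679 mature mouse names, itself and let-7j. At base 8 let-7a differs. Bases 2 to 7 of miR-202-3p were shared by 13 names, itself and 10 let-7 names among them. No other name shared those bases of miR-202-5p. Mir202 was listed at 0 FPKM in all 6 libraries, as were 589 of 590 microRNA symbols in all 16, so the genotype could not be checked.

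The preparations carried high levels of spermatocyte genes in every library. Ldhc, a germ cell form of lactate dehydrogenase, averaged 3203 ± 144 FPKM in knockout and 3557 ± 246 FPKM in wildtype spermatocytes (SD, n = 3 each). Hspa2, a chaperone of pachytene cells, stood at 817, 823 and 804 FPKM in knockout and at 818, 839 and 813 FPKM in wildtype spermatocytes. Kit, the receptor of differentiating spermatogonia, stayed below an FPKM of 1 in every library. Prm1, a protamine of spermatids, stood at 599, 335 and 1494 FPKM in knockout replicates 1 to 3 and at 604, 1101 and 717 FPKM in wildtype replicates 1 to 3, so RNA of spermatids was present as well.

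The libraries of each genotype were not alike in makeup. Insl3, a hormone of Leydig cells, stood at 10.9, 81.8 and 98.0 FPKM in knockout replicates 1 to 3 and at 8.79, 12.4 and 45.0 FPKM in wildtype replicates 1 to 3. The summed FPKM of 23 Sertoli cell markers was 217 in knockout replicate 3 and 107 in wildtype replicate 2, against 36.6 to 47.2 in the other 4 libraries. Knockout replicate 1 stood apart in another way: it was the lowest library for 126 of 157 X-linked genes tested (80.3%), against 24.7% of all genes tested. Its X-linked genes summed to 368 FPKM, against 785 and 849 in the other knockout libraries and 625 to 717 in the wildtype libraries. Sycp1, the transverse filament of the synaptonemal complex, was highest in knockout replicate 2 (75.2 FPKM) and wildtype replicate 3 (68.3 FPKM), and 34.3 to 54.1 FPKM elsewhere. Across genes, knockout replicate 2 correlated best with wildtype replicate 3 (Pearson r = 0.989 on the log2 scale), knockout replicate 3 with wildtype replicate 2 (0.989) and knockout replicate 1 with wildtype replicate 1 (0.986), each higher than any pair of knockout libraries (0.979 to 0.983). The highest of all pairs was wildtype replicate 1 with wildtype replicate 2 (0.990). Wildtype replicate 3 gave 0.984 with wildtype replicate 1 and 0.982 with wildtype replicate 2. In these bulk samples fewer cells of a type and less RNA per cell cannot be told apart.

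**Figure D1:**
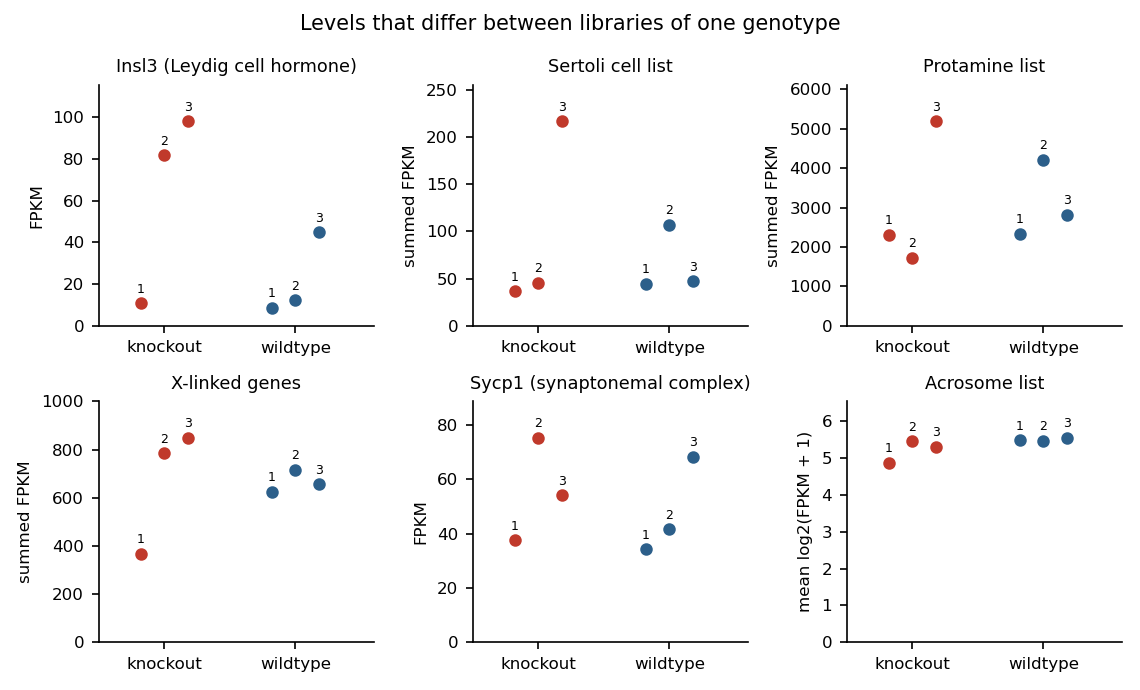
Levels that differed between libraries of the same genotype, with knockout (red) left of wildtype (blue) and replicates numbered; the y axes give FPKM, summed FPKM over a list, or the mean log2(FPKM + 1) of the acrosome list. Insl3 was above 20 FPKM in knockout replicates 2 and 3 and wildtype replicate 3, the Sertoli and protamine sums were highest in knockout replicate 3 and wildtype replicate 2, and the X-linked sum was lowest in knockout replicate 1.

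Knockout and wildtype spermatocytes were close across the transcriptome. With limma on log2(FPKM + 1), 1 of 10271 genes was lower in the knockout at an adjusted p under 0.05 (0.00974%) and 0 were higher (0%). At an unadjusted p under 0.05, 313 were lower (3.05%) and 105 higher (1.02%). The median difference, knockout minus wildtype, was -0.0076 on the log2 scale, with the 5th and 95th percentiles at -0.32 and 0.27 and a median SE of 0.16. For 9922 genes (96.6%) the 95% interval of the difference lay between -1 and 1, so a change of 2-fold on this scale lay outside the interval. A log2 difference of 1 or more was found for 7 genes and of -1 or less for 10. All 3 knockout libraries lay below all 3 wildtype libraries for 600 genes (5.84%) and above them for 218 (2.12%); these shares are the background for the lists below. Leaving out a library changed the calls: 7 lower and 8 higher without knockout replicate 1, 33 and 2 without knockout replicate 2, 9 and 0 without knockout replicate 3, 5 and 1 without wildtype replicate 1. With wildtype replicate 2 left out they were 1 and 0, and with wildtype replicate 3 left out 0 of either.

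**Figure D2:**
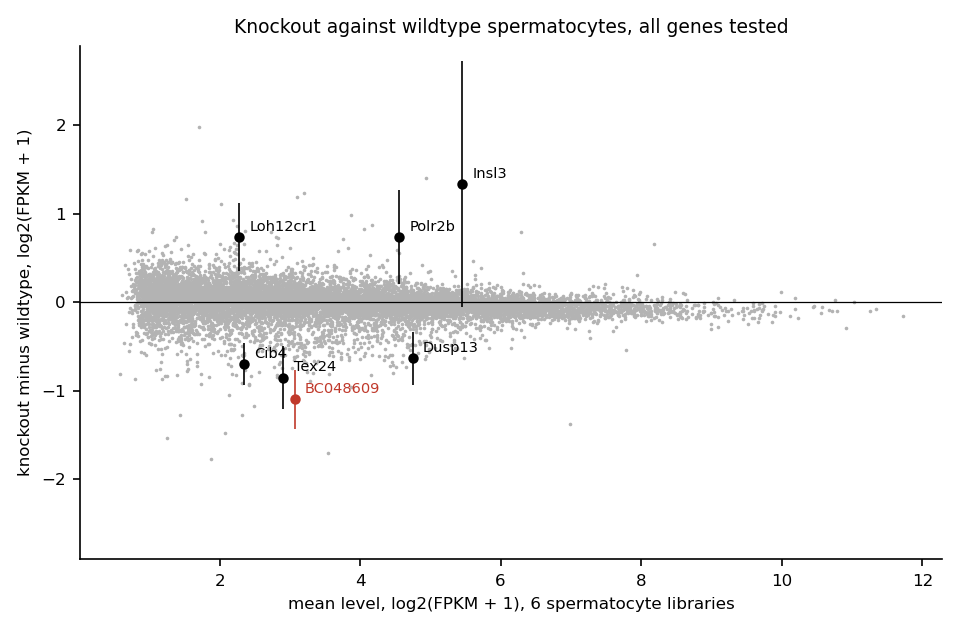
Each grey point is 1 of the 10271 genes tested, with its mean log2(FPKM + 1) over the 6 spermatocyte libraries on the x axis and the limma difference, knockout minus wildtype, on the y axis; bars are 95% intervals. BC048609 (red, -1.09) was the 1 gene called, and Insl3 had the widest interval of the genes marked (-0.053 to 2.73).

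BC048609 was the gene called lower. It had 3.37, 5.38 and 4.39 FPKM in knockout spermatocytes, against 9.43, 9.90 and 11.8 FPKM in wildtype spermatocytes (log2 difference -1.09, SE 0.16, 95% interval -1.43 to -0.76, limma adjusted p = 0.0483). The highest knockout library lay well below the lowest wildtype library. The tables used here give this symbol no product, so no role is stated. Its call ended without wildtype replicate 2 (limma adjusted p = 0.118) and without wildtype replicate 3 (0.153), and held without each of the other 4 libraries (0.00539 to 0.0338). It also ended in a fit of the 6 spermatocyte libraries alone (limma adjusted p = 0.999). A pseudocount of 0.1 (1) and the replicate number as a block (0.353) ended it too. A term for Insl3 above 20 FPKM was fitted on the same 6 libraries alone, where the call had already ended. With that term the difference was -1.21 (SE 0.12, limma adjusted p = 0.314), against -1.09 (SE 0.17) in the 6 libraries without it.

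Among named genes with a mean FPKM of 5 or more in a genotype, leaving out clones and unnamed models, the next smallest p-values on the lower side did not pass. Cib4, a calcium- and integrin-binding protein needed for spermatid differentiation in mice, stood at 3.22, 2.54 and 2.89 FPKM in knockout, against 4.45, 5.21 and 6.27 FPKM in wildtype spermatocytes (-0.69, SE 0.11, limma adjusted p = 0.0586). It passed without knockout replicate 1, knockout replicate 2 or wildtype replicate 1 (0.0284, 0.0399 and 0.0208), and with no filter on low values (limma adjusted p = 0.0321). Knockout replicate 1 and wildtype replicate 1 were its libraries closest to the other genotype. Tex24, a testis-expressed gene, stood at 4.41, 4.82 and 3.60 FPKM in knockout, against 9.16, 5.80 and 11.3 FPKM in wildtype (-0.85, SE 0.17, adjusted p = 0.25 with limma). Wildtype replicate 2 was the closest to the knockout range, and without it Tex24 passed (-1.09, limma adjusted p = 0.00731). Leaving out the library closest to the other genotype widened the difference by construction, so that p-value gives no support. Dusp13, a dual-specificity phosphatase, stood at 15.8, 22.9 and 21.9 FPKM in knockout, against 31.9, 29.7 and 32.9 FPKM in wildtype (-0.63, SE 0.14, limma adjusted p = 0.317). Nipsnap3a averaged 7.00 ± 1.82 FPKM in knockout and 11.7 ± 1.95 FPKM in wildtype spermatocytes (SD, n = 3 each; -0.69, limma adjusted p = 0.349). In all 4 of these genes the knockout and wildtype libraries did not overlap, while 5.84% of all genes were lower without overlap. The 4 were picked for small p-values, so that separation gives no support.

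On the higher side no gene passed. Loh12cr1, now called Borcs5, a subunit of a lysosome-positioning complex, stood at 4.04, 7.15 and 4.12 FPKM in knockout, against 2.89, 2.16 and 2.72 FPKM in wildtype spermatocytes (0.73, SE 0.18, limma adjusted p = 0.39). Its libraries did not overlap. Polr2b, a core subunit of RNA polymerase II, stood at 14.7, 34.5 and 38.1 FPKM in knockout, against 13.1, 15.6 and 19.02 FPKM in wildtype (0.74, SE 0.25, limma adjusted p = 0.786). Knockout replicate 1 lay within the wildtype range, and without that library Polr2b passed (1.16, limma adjusted p = 0.00432). Leaving out the knockout library closest to wildtype widened the difference by construction, so that p-value gives no support. Abcf1, an ATPase of translation initiation, averaged 59.0 ± 11.8 FPKM in knockout and 44.1 ± 1.66 FPKM in wildtype spermatocytes (SD, n = 3 each; 0.39), with knockout replicate 2 inside the wildtype range. It passed without that library (0.57, limma adjusted p = 0.0396), with the same limit. Dynlrb1, a dynein light chain, and Dusp16, a phosphatase of MAP kinases, had log2 differences of 0.65 and 0.74 with overlapping libraries.

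**Figure D3:**
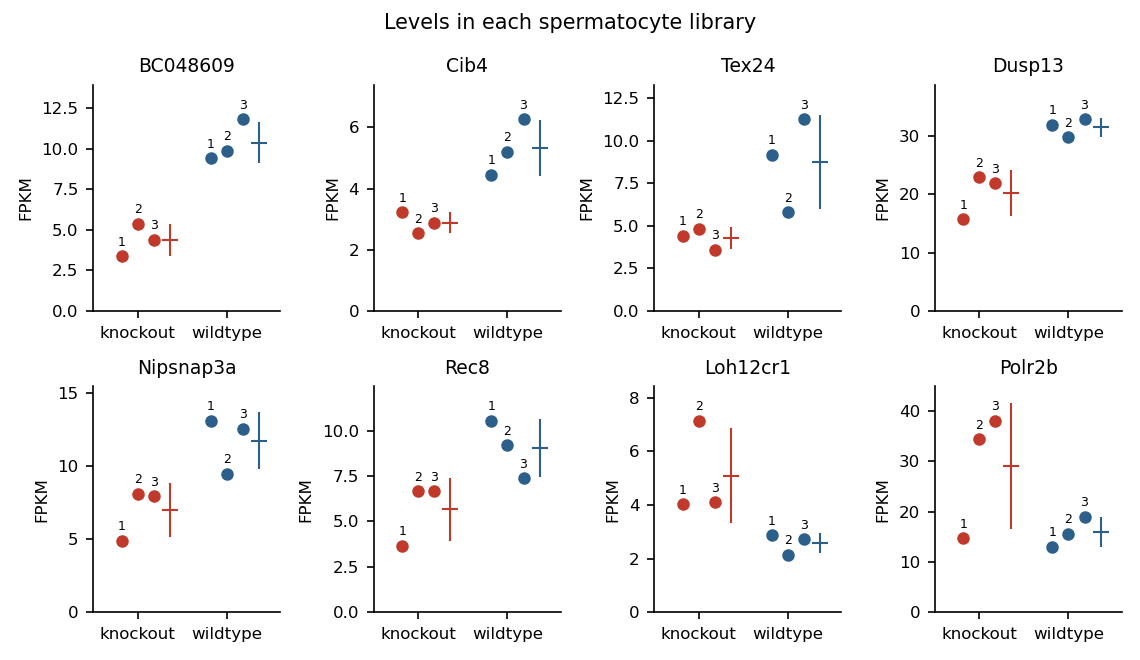
FPKM of 8 genes in each spermatocyte library (numbered points), with the mean and SD beside them; knockout is left of wildtype and each y axis starts at 0. BC048609, Cib4, Tex24, Dusp13, Nipsnap3a and Rec8 were lower in every knockout library than in every wildtype library, Loh12cr1 was higher in every one, and Polr2b was high in knockout replicates 2 and 3.

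The candidate targets of miR-202 gave 0 calls among 7 genes, and the list is one of candidates, not of established targets. Rbfox2, a splicing regulator, and Cpeb1, which controls polyadenylation in meiosis, are the members linked to miR-202 in male germ cells by earlier work. Rbfox2 stood at 0.965, 2.20 and 1.403 FPKM in knockout, against 0.685, 0.931 and 1.47 FPKM in wildtype spermatocytes (0.30, 95% interval -0.065 to 0.67). Cpeb1 stood at 0.924, 2.73 and 1.86 FPKM in knockout, against 0.561, 0.703 and 1.96 FPKM in wildtype (0.46, -0.080 to 1.004). Both overlapped between the genotypes and lay near the FPKM minimum. Rec8, the kleisin subunit of meiotic cohesin, was the member whose libraries did not overlap: 3.68, 6.65 and 6.65 FPKM in knockout, against 10.5, 9.19 and 7.39 FPKM in wildtype (-0.62, SE 0.20, limma adjusted p = 0.75). Stra8, which starts meiosis under retinoic acid, averaged 1.64 ± 1.04 FPKM in knockout and 1.14 ± 0.643 FPKM in wildtype spermatocytes (SD, n = 3 each; 0.25). Abundant members lay close together: Dmrtb1, a transcription factor of the switch from mitosis to meiosis, Stag3, a meiotic cohesin subunit, and Espl1, the separase, had differences of -0.096, -0.040 and 0.063.

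Matches to the seeds were read in the longest 3′ UTR of each gene. Of the 7 candidates, Rbfox2 held a match, 1 for each arm; 30 bases around each are shown, with the match in capitals.
Rbfox2 miR-202-3p match: gaatacttttttATACCTCactatgttctt
Rbfox2 miR-202-5p match: tcactccaaagcCATAGGAatttccatctt
The match ATACCTC to miR-202-3p, searched on the sense strand, was in 559 of 9696 tested genes with a UTR. Their median difference was 0.011, against -0.0064 for the 9137 genes without it. For CATAGGA, the match to miR-202-5p, the medians were 0.012 over 740 genes with and -0.0071 over 8956 without. Higher without overlap were 2.33% and 2.03% of the genes with a match, and 2.11% and 2.13% of those without. Genes with a match had longer UTRs, with medians of 2388 against 906 bases for miR-202-3p. The part of UTR length was not tested. The 5 genes named on the higher side held neither match.

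Genes of chromosome axes and recombination gave 0 calls, with medians near 0 whose sign changed when a single library was left out. Of 15 cohesin and separase genes tested, 8 lay above 0 and 7 below, with a median of 0.015 (-0.035 to 0.079 with a library left out); Rec8 was lower without overlap and Pds5b, a cohesin regulator, higher without overlap (0.11). The median of 14 synaptonemal complex and axis genes was 0.086, and it ran from -0.035 without knockout replicate 2 to 0.15 without knockout replicate 1. Syce1, a central element protein, was the 1 without overlap, at 309, 285 and 303 FPKM in knockout, against 320, 309 and 336 FPKM in wildtype (-0.11, 95% interval -0.36 to 0.15). Sycp1 averaged 55.6 ± 18.8 FPKM in knockout and 48.1 ± 17.9 FPKM in wildtype spermatocytes (SD, n = 3 each). The highest library was knockout replicate 2 for 7 of the 14 and wildtype replicate 3 for 6.

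Recombination genes numbered 32 tested, with a median of 0.043 (-0.034 without wildtype replicate 1, 0.075 without wildtype replicate 3) and 0 members whose libraries did not overlap in either direction. Spo11, which cuts the DNA to start recombination, averaged 61.7 ± 4.52 FPKM in knockout and 60.8 ± 1.23 FPKM in wildtype spermatocytes (SD, n = 3 each). Mlh3, a crossover protein, averaged 15.5 ± 0.27 FPKM in knockout and 14.8 ± 0.68 FPKM in wildtype. The widest members were Dmc1, the meiotic strand exchange protein, at 0.985, 3.43 and 2.42 FPKM in knockout, against 0.964, 1.23 and 1.67 FPKM in wildtype (0.45, 95% interval -0.13 to 1.04), and Nbn, of the break repair complex, with -0.21 (-0.48 to 0.056). Over the 32 genes the differences ran from -0.21 to 0.45.

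Other meiotic groups also had 0 calls. Of 24 pachytene spermatocyte genes 18 lay below 0, with a median of -0.094, against 52.3% of all genes tested below 0. Pgk2, the phosphoglycerate kinase of germ cells, stood at 140, 156 and 144 FPKM in knockout, against 161, 180 and 171 FPKM in wildtype (-0.22, 95% interval -0.55 to 0.11). Piwil1, the piRNA-binding protein of pachytene cells, averaged 268 ± 19.01 FPKM in knockout and 220 ± 53.7 FPKM in wildtype (SD, n = 3 each; 0.31). Meiotic division genes had a median of -0.090 over 24, with 17 below 0 and 0 without overlap; Aurkc, the Aurora kinase of germ cells, had -0.33 (-0.75 to 0.089), Fbxo43, an inhibitor of the anaphase-promoting complex, -0.21, and Ttk, a checkpoint kinase, -0.13. The piRNA pathway, which silences transposons, had a median of 0.048 over 23 members, and its helicase Mov10l1 had 0.29. Over 17 genes of the sex body, in which the X and Y are silenced during pachytene, the median was 0.11. Topbp1, a checkpoint protein recruited there, averaged 17.97 ± 3.03 FPKM in knockout and 14.6 ± 2.65 FPKM in wildtype spermatocytes (0.29). The chromatin protein Cbx1 was higher without overlap (22.6, 22.1 and 24.0 FPKM in knockout, against 18.1, 18.9 and 21.5 FPKM in wildtype). Ube2a, an X-linked ubiquitin-conjugating enzyme, averaged 0.717 ± 0.335 FPKM in knockout and 1.37 ± 0.388 FPKM in wildtype (-0.47). X-linked genes as a whole had a median of -0.057 over 157, and 0.15 without knockout replicate 1, -0.17 without knockout replicate 2 and -0.20 without knockout replicate 3. With all 6 libraries 2 (1.27%) were higher without overlap, against 2.12% of all genes, and 5 (3.18%) were lower, against 5.84%. Without knockout replicate 1, 39 (24.8%) were higher without overlap, against 11.6% of all genes. Without knockout replicate 2, 36 (22.9%) were lower without overlap, against 11.7% of all genes.

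Genes of the acrosome lay mostly lower in knockout spermatocytes, though no member passed the test. Of 26 tested, 24 lay below 0, with a median of -0.23, against -0.0076 for all genes, and 9 (34.6%) were lower in every knockout library than in every wildtype library, against 5.84% of all genes. Izumo2, of the family of sperm-egg fusion proteins, stood at 6.10, 9.20 and 10.9 FPKM in knockout, against 13.5, 13.0 and 12.8 FPKM in wildtype (-0.57, SE 0.15, limma adjusted p = 0.447). Spaca7, an acrosomal protein, stood at 7.24, 12.9 and 15.3 FPKM in knockout, against 17.8, 17.8 and 18.9 FPKM in wildtype (-0.64, limma adjusted p = 0.62). Spaca4, a membrane protein of the sperm head, stood at 11.2, 25.2 and 17.8 FPKM in knockout, against 28.1, 25.4 and 31.0 FPKM in wildtype (-0.68, 95% interval -1.16 to -0.20). Wildtype libraries differed little among themselves, while knockout replicate 1 was the lowest in each of these genes. Acrv1, a protein of the acrosomal matrix, and Izumo1, the fusion ligand, had -0.64 and -0.50, and Lyzl6, a lysozyme-like protein, had the lowest difference of the list, -0.73, with overlapping libraries. Abundant Acr, the acrosomal protease, averaged 137 ± 2.87 FPKM in knockout and 138 ± 10.3 FPKM in wildtype (SD, n = 3 each).

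Knockout replicate 1 was the lowest library for 16 of the 26 acrosome genes (61.5%). Without it the median was -0.13, and 13 members (50%) were lower in both remaining knockout libraries, against 11.2% of all genes in the same comparison. Without another of the libraries the median lay between -0.34 and -0.17. Lyzl6 passed without knockout replicate 2, its knockout library closest to wildtype (limma adjusted p = 0.0266).

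The Adam family of membrane metalloprotease-disintegrins, many of which are made in male germ cells, had 24 members tested, 21 of them below 0, with a median of -0.18. Of these, 9 (37.5%) were lower without overlap, against 5.84% of all genes. Adam26a stood at 0.99, 2.88 and 3.75 FPKM in knockout, against 4.81, 4.93 and 4.88 FPKM in wildtype (-0.82, SE 0.22, limma adjusted p = 0.491). Adam34 stood at 0.495, 0.742 and 0.907 FPKM in knockout, against 1.32, 1.45 and 1.32 FPKM in wildtype (-0.47, SE 0.094, limma adjusted p = 0.25). These levels lay near the FPKM minimum. Adam34 passed with no filter on low values (limma adjusted p = 0.0321) and with quantile normalization (-0.59, limma adjusted p = 0.016), and under no other alternative. Adam25 averaged 2.43 ± 1.14 FPKM in knockout and 3.99 ± 0.281 FPKM in wildtype spermatocytes (SD, n = 3 each; -0.60). These 3 come from a group of similar copies, and how reads were split among them is uncertain. Adam3, which sperm need to reach the egg, stood at 384, 333 and 332 FPKM in knockout, against 404, 403 and 340 FPKM in wildtype (-0.13), with overlap. Knockout replicate 1 was the lowest library for 14 of the 24, and without it the median was -0.14 and 12 (50%) were lower without overlap, against 11.2% of all genes in the same comparison.

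**Figure D4:**
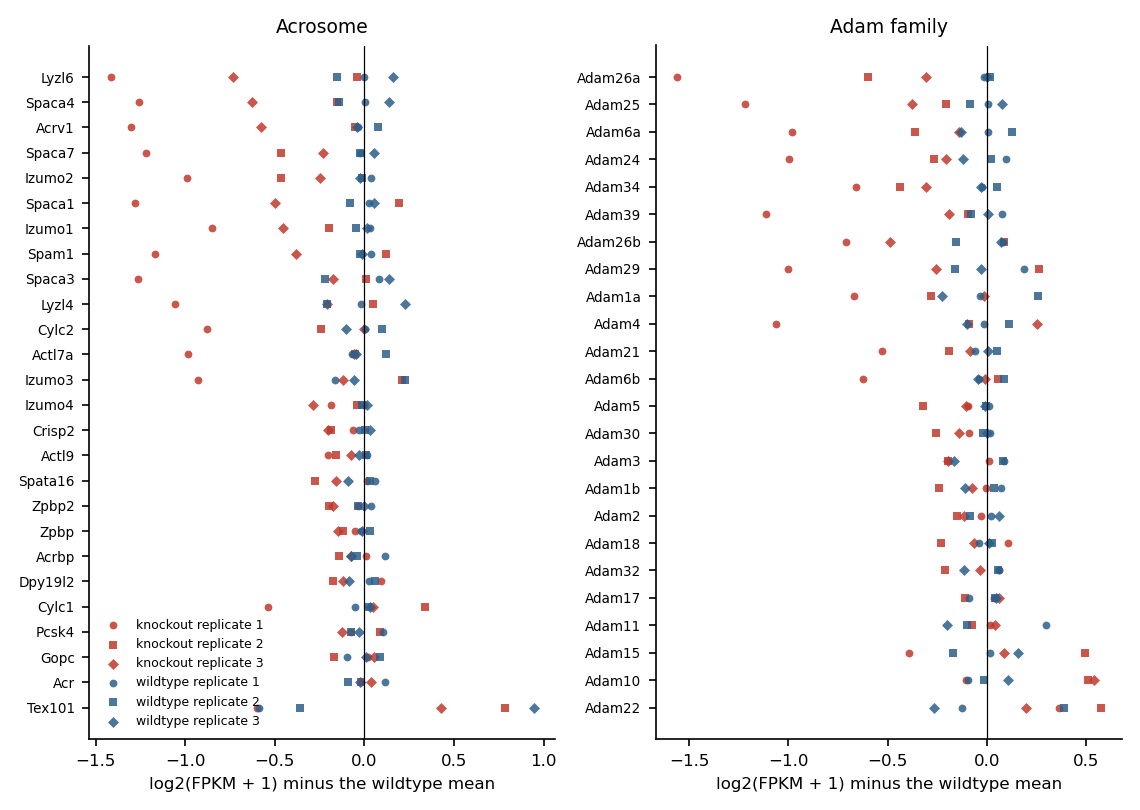
Each member of the acrosome list (left) and the Adam family (right) tested, with log2(FPKM + 1) in each library minus the wildtype mean on the x axis; knockout is red, wildtype blue, and shapes give the replicate number. Knockout replicate 1 (red circles) lay farthest left for the lowest members, and knockout replicates 2 and 3 lay left of the wildtype libraries for 13 acrosome and 12 Adam genes.

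The 37 flagellum and fibrous sheath genes tested had a median of -0.17, with 32 below 0, against 52.3% of all genes tested below 0. Of the 37, 7 (18.9%) were lower without overlap, against 5.84% of all genes. Cabyr, a calcium-binding protein of the fibrous sheath, stood at 19.8, 44.5 and 39.0 FPKM in knockout, against 45.3, 49.6 and 46.0 FPKM in wildtype (-0.51, 95% interval -1.002 to -0.024). Tssk4, a kinase of late spermatids, averaged 9.89 ± 4.34 FPKM in knockout and 14.7 ± 1.59 FPKM in wildtype (SD, n = 3 each; -0.61), and Ropn1, of the sheath, averaged 47.0 ± 17.9 FPKM in knockout and 60.3 ± 6.76 FPKM in wildtype (-0.43); both overlapped. Meig1, needed to assemble the sperm tail, averaged 856 ± 42.4 FPKM in knockout and 1003 ± 75.0 FPKM in wildtype without overlap (-0.23). Leaving out knockout replicate 1 gave a median of -0.072, and leaving out wildtype replicate 2 gave -0.10.

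Sperm channels and transporters had a median of -0.17 over 17 members, and 3 (17.6%) were lower without overlap, against 5.84% of all genes. Catsper3, a pore subunit of the sperm calcium channel, stood at 4.83, 6.01 and 7.36 FPKM in knockout, against 8.495, 9.77 and 9.23 FPKM in wildtype (-0.54, SE 0.13, limma adjusted p = 0.401). Catsper1, another pore subunit, stood at 4.78, 7.63 and 8.15 FPKM in knockout, against 10.2, 11.9 and 9.12 FPKM in wildtype (-0.56, SE 0.15, limma adjusted p = 0.513). Slc22a14, a transporter of the sperm tail, averaged 13.5 ± 4.49 FPKM in knockout and 20.3 ± 0.712 FPKM in wildtype (SD, n = 3 each; -0.60). It passed without knockout replicate 2, its knockout library closest to wildtype (limma adjusted p = 0.033). Lrrc52, a partner of the sperm potassium channel, had -0.47 with overlap. The median was -0.098 without wildtype replicate 2.

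Regulators of round spermatids and protamine genes were closer to the rest. Round spermatid regulators had a median of -0.10 over 19, with 16 below 0; knockout replicate 1 was the lowest library for 12 of them. Creb3l4, a membrane-bound transcription factor, was the 1 without overlap, at 17.3, 27.1 and 25.9 FPKM in knockout, against 32.0, 31.6 and 32.9 FPKM in wildtype (-0.47, 95% interval -0.86 to -0.075). Sox5, a transcription factor of spermatids, had -0.36, and Crem, the activator of post-meiotic genes, averaged 50.6 ± 1.88 FPKM in knockout and 56.3 ± 5.23 FPKM in wildtype spermatocytes (SD, n = 3 each). The median of 12 protamine and transition protein genes, which pack the sperm DNA, was -0.080, with 0 members without overlap; it ran from -0.37 without knockout replicate 3 to 0.16 without knockout replicate 1. Their summed FPKM ran from 1734 to 5186 in knockout and from 2336 to 4215 in wildtype libraries, so the spread within each genotype was larger than any difference. Hist1h2ba, a histone of spermatogenic cells, had the highest difference of that list (0.56, 95% interval -0.30 to 1.41).

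**Figure D5:**
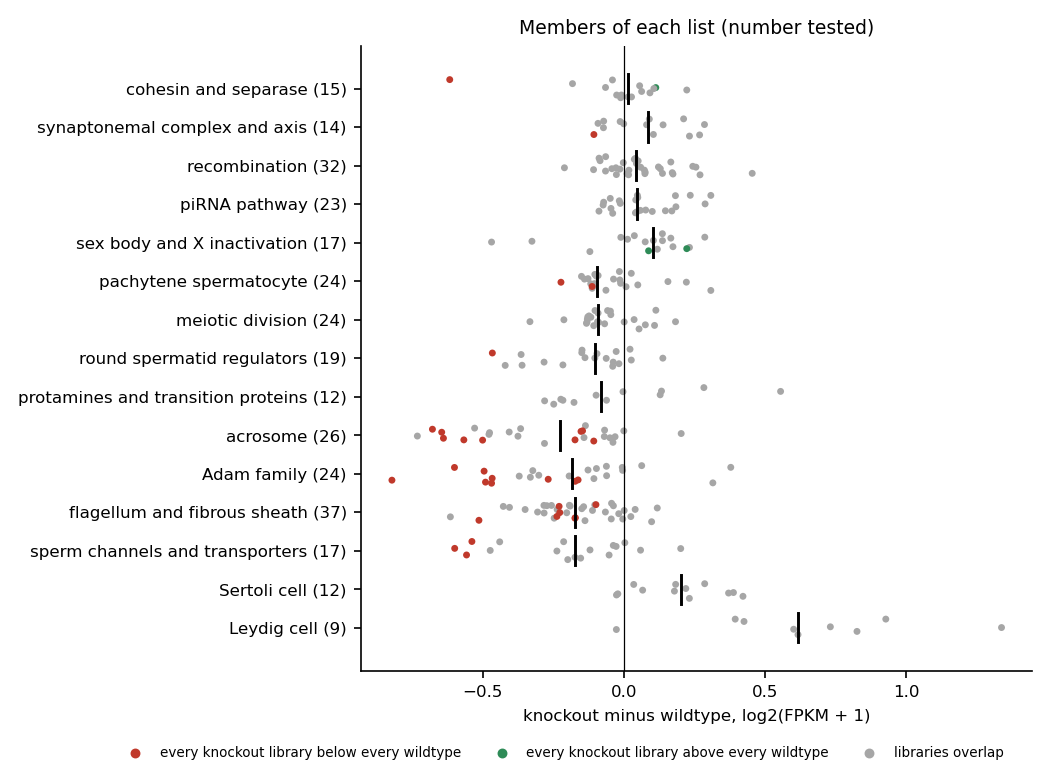
Difference between knockout and wildtype for each tested member of 15 lists, on the log2(FPKM + 1) scale; black bars are list medians and the number tested is in brackets. Members whose knockout libraries all lay below the wildtype libraries (red) were most frequent in the acrosome list (9 of 26) and the Adam family (9 of 24), and none was seen among recombination, piRNA pathway, meiotic division, protamine, Sertoli or Leydig genes.

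Many genes of earlier germ cells were too low to be tested. Of 22 genes of undifferentiated spermatogonia 6 were tested, with a median of 0.039, and Utf1, a chromatin factor of these cells, was lower without overlap (0.232, 0.736 and 0.667 FPKM in knockout, against 1.38, 1.07 and 1.49 FPKM in wildtype; -0.59). Of 17 genes of differentiation and meiotic entry 9 were tested, with a median of 0.13 that ran from 0.019 without knockout replicate 3 to 0.37 without knockout replicate 1. With all 6 libraries 0 of the 9 (0%) were higher without overlap, against 2.12% of all genes, and 1 (11.1%) was lower, against 5.84%. Without knockout replicate 1, 5 of the 9 (55.6%) were higher without overlap, against 11.6% of all genes. Knockout replicate 1 was the lowest library for 5 of the 9 (55.6%), against 24.7% of all genes. Leaving it out raised the count by construction, so that count gives no support. Sohlh2, a transcription factor of differentiating spermatogonia, had 0.963, 4.09 and 2.80 FPKM in knockout, against 0.709, 0.890 and 2.10 FPKM in wildtype (0.64, 95% interval -0.029 to 1.31). Dazl, an RNA-binding protein of germ cells, averaged 26.9 ± 11.9 FPKM in knockout and 17.2 ± 7.05 FPKM in wildtype (SD, n = 3 each; 0.59), and Celf1, a splicing and decay factor, was higher without overlap (0.26); the 38 RNA-binding genes had a median of 0.059. In the microRNA machinery 9 of 11 genes lay above 0, with a median of 0.092, and 2 (18.2%) were higher without overlap, against 2.12% of all genes. These were Prkra, a partner of Dicer, at 6.82, 7.32 and 7.57 FPKM in knockout, against 5.25, 6.498 and 5.19 FPKM in wildtype (0.31), and Eif2c2, now Ago2, the slicing Argonaute, which averaged 2.25 ± 0.218 FPKM in knockout and 1.57 ± 0.335 FPKM in wildtype (0.35).

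Somatic markers varied between libraries of the same genotype. Leydig cell genes had a median of 0.62 over 9 tested, all with overlapping libraries. The median ran from 0.32 without knockout replicate 3 to 1.08 without knockout replicate 1, and without knockout replicate 1, 8 of the 9 (88.9%) were higher without overlap, against 11.6% of all genes. Insl3 averaged 63.6 ± 46.4 FPKM in knockout and 22.1 ± 19.9 FPKM in wildtype spermatocytes (SD, n = 3 each; 1.34, 95% interval -0.053 to 2.73). Hsd3b6, a steroid dehydrogenase, stood at 0.308, 2.49 and 2.33 FPKM in knockout, against 0.106, 0.333 and 0.847 FPKM in wildtype. It passed without knockout replicate 1, its knockout library closest to wildtype (1.29, limma adjusted p = 0.00432). Sertoli cell genes had a median of 0.20 over 12 tested, and -0.38 without knockout replicate 3; Amh, a Sertoli hormone, averaged 0.649 ± 0.432 FPKM in knockout and 0.635 ± 0.157 FPKM in wildtype. Of 21 macrophage and leukocyte genes 3 were tested (median 0.33), all with overlap. Aif1 averaged 32.2 ± 8.86 FPKM in knockout and 44.6 ± 5.79 FPKM in wildtype (-0.48). H2-Ab1, an MHC class II chain, averaged 2.14 ± 1.08 FPKM in knockout and 1.29 ± 0.315 FPKM in wildtype (0.40), and Cx3cr1, a chemokine receptor, 0.998 ± 0.498 FPKM in knockout and 0.589 ± 0.401 FPKM in wildtype (0.33; SD, n = 3 each). Of 14 endothelial genes 1 was tested (0.068), and of 8 erythroid genes 0. The part of these cells in the differences above was not tested. In limma on the 6 libraries alone, with Insl3 above 20 FPKM as a term, 0 genes were called. At an unadjusted p under 0.05, 523 were lower and 50 higher. The fit of the 6 libraries without the term also gave 0 calls, with 216 lower and 48 higher at an unadjusted p under 0.05.

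Several wider groups also had 0 calls each. Tex and Spata genes, named for their expression in testis, had a median of -0.10 over 32, with 24 below 0 and 8 above. Of these, 6 (18.8%) were lower without overlap, against 5.84% of all genes, and 1 (3.12%) was higher, against 2.12%. Germ cell isoforms of glycolysis had a median of -0.091 over 25, ribosomal proteins -0.0006 over 70, proteasome subunits -0.028 over 37 and oxidative phosphorylation -0.036 over 83. Immediate early, heat shock, p53, interferon and cell cycle genes had medians of -0.041, -0.024, 0.064, 0.090 and 0.036 over 15, 22, 17, 6 and 20 genes. Autosomal retrogenes of X-linked genes, which replace their parents during X silencing, had -0.14 over 13, with 10 below 0 and 3 above. Histone cluster genes had -0.070 over 18. Peritubular myoid, fibroblast and epididymis genes had medians of 0.0009, 0.14 and -0.056 over 6, 7 and 3 genes.

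The knockout effect in spermatocytes was set against that in the other germ cells by its difference in the same limma model. Against spermatogonia, 2 of 8462 genes were called with a higher effect in spermatocytes (0.0236%) and 0 with a lower one (0%), and against cultured stem cells 3 of 8453 (0.0355%) and 0 (0%). At an unadjusted p under 0.05, 490 were higher and 252 lower against spermatogonia, and 362 and 115 against cultured stem cells. Lama2, a laminin chain of basement membranes, averaged 2.61 ± 0.751 FPKM in knockout and 2.79 ± 0.388 FPKM in wildtype spermatocytes (SD, n = 3 each), while knockout spermatogonia had 3.27 and 3.54 FPKM, against 15.1 and 22.3 FPKM in wildtype spermatogonia. Lama2 is a member of the fibroblast and matrix list, and the part of somatic cells in this difference was not tested. Dap, a mediator of cell death and autophagy, averaged 44.5 ± 1.72 FPKM in knockout and 44.5 ± 4.27 FPKM in wildtype spermatocytes, while cultured stem cells had 5.16 ± 0.274 FPKM in knockout and 13.3 ± 2.62 FPKM in wildtype (SD, n = 3 each). Quantile normalization gave 16 higher and 9 lower against spermatogonia. Without knockout replicate 1 the counts were 21 higher and 1 lower against spermatogonia and 40 and 1 against cultured stem cells; without wildtype replicate 3 they were 4 and 0 against spermatogonia. Against spermatogonia they were 0 without wildtype replicate 1, and 1 higher and 0 lower without each of the remaining libraries. Leaving out any of the 5 spermatocyte libraries other than knockout replicate 1 gave 0 calls against cultured stem cells.

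Genes called in the other cell types had medians near 0 in spermatocytes. Of 691 genes lower in knockout spermatogonia (5.76% of 11997 tested), 173 were tested in spermatocytes; their median difference was -0.78 in spermatogonia and -0.021 in spermatocytes, and 11 (6.36%) were lower without overlap in spermatocytes. Of 704 genes lower in knockout cultured stem cells (5.84% of 12046 tested), 198 were tested in spermatocytes. Their medians were -0.79 in the cultures and -0.0043 in spermatocytes, and 16 (8.08%) were lower without overlap in spermatocytes. Of all genes tested in spermatocytes, 600 (5.84%) were lower without overlap, close to the shares of both sets. Of the 110 and 39 genes higher in knockout spermatogonia and knockout cultured stem cells (0.917% and 0.324%), 52 and 13 were tested in spermatocytes, with medians of 0.011 and -0.017. Of these 52 and 13 genes, 4 (7.69%) and 1 (7.69%) were higher without overlap in spermatocytes, against 2.12% of all genes. Lower without overlap were 2 (3.85%) and 0 (0%). In spermatocytes 0 of the genes called in the other cell types were called.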

How the data were processed

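RNA of 16 libraries was sequenced on the HiSeq X10 after a strand-specific library preparation, per the labels' protocols. The authors deposited 1 FPKM table per library, made with TopHat2 2.0.6, Cufflinks 2.0.2 and mm9, per the submitters' processing notes; counts and depth were not given, so the depth is unknown. Of 23021 rows, 728 rows of 259 repeated symbols were left out. Genes with an FPKM of 1 or more in at least 2 of the 6 spermatocyte libraries were tested with limma 3.58.1 (R 4.3.3) on log2(FPKM + 1), fitted over all 16 libraries with 1 mean per group and a trend in the prior variance. P-values were adjusted by Benjamini-Hochberg with a threshold of 0.05. A fold change on this scale understates that of low genes. The script was tested on simulated data. Python 3.11.15 made the tables and figures.

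Genes named were the called gene, the 5 of smallest p in each direction whose mean FPKM reached 5 in either genotype, the candidate targets, and of each list up to 4 members of smallest p; others, such as Acrv1, Izumo1, Meig1, Sycp1, Prm1, Acr, Mlh3, Spo11, Crem, Lama2, Fstl1, Gadd45b, the Adam genes and the marker genes Ldhc, Hspa2, Kit and Amh, were chosen after their values were seen. The members and all gene lists were chosen with earlier results of these data known. Names, 3′ UTRs and microRNA sequences came from GRCm38 annotation, whose coordinates were not joined to the mm9 tables. Alternatives were another pseudocount, filter or scaling, other fits, and each spermatocyte library left out. The term for Insl3 was chosen after the data were seen and was fitted on the 6 spermatocyte libraries alone.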

Additional observations from a re-analysis of the deposited data

Results flagged for a closer look

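For 5 genes the knockout effect differed between spermatocytes and another germ cell type, by limma's test of the difference of effects on the log2(FPKM + 1) scale (spermatocytes minus the other type). Lama2 had a difference of 2.05 against spermatogonia (SE 0.27, limma adjusted p = 0.0145). Lama2 and Fstl1 are both members of the fibroblast and matrix list of somatic markers. The part of somatic cells in the spermatogonia libraries was not tested. Fstl1, a secreted glycoprotein, had 2.05 (SE 0.31, limma adjusted p = 0.0417): it averaged 2.35 ± 0.381 FPKM in knockout and 2.07 ± 0.436 FPKM in wildtype spermatocytes (SD, n = 3 each), while knockout spermatogonia had 14.8 and 13.8 FPKM, against 46.7 and 69.3 FPKM in wildtype spermatogonia.

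Against cultured stem cells, Dap had a difference of 1.20 (SE 0.18), 1300014I06Rik of 1.37 and Gadd45b, a stress-response gene, of 1.09, each with a limma adjusted p of 0.0359. Levels of 1300014I06Rik averaged 13.4 ± 0.89 FPKM in knockout and 14.7 ± 2.22 FPKM in wildtype spermatocytes, and 1.16 ± 0.235 FPKM in knockout and 5.13 ± 1.13 FPKM in wildtype cultured stem cells (SD, n = 3 each). Gadd45b averaged 2.43 ± 0.118 FPKM in knockout and 1.63 ± 0.127 FPKM in wildtype spermatocytes, and 5.22 ± 0.756 FPKM in knockout and 9.10 ± 0.542 FPKM in wildtype cultured stem cells. Its difference of 0.39 between knockout and wildtype spermatocytes did not pass (limma adjusted p = 0.719).

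These calls depended on the setting, while each difference kept its sign. Lama2 was called under 9 of 13 alternatives, Fstl1 under 5 of 13, Dap under 6 of 14, 1300014I06Rik under 5 of 13 and Gadd45b under 4 of 13. With the libraries of the compared cell types alone none of the 5 was called (limma adjusted p from 0.0568 for Fstl1 to 0.106 for Gadd45b and 1300014I06Rik), nor was any with the replicate number as a block.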

How the results depend on the processing

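Of genes called between knockout and wildtype spermatocytes (1), a pseudocount of 0.1 and the 6 libraries alone, without or with the Insl3 term, each gave 0. No filter gave 9, median-ratio scaling 2, quantile normalization 5, and leaving out a library 0 to 35. Against spermatogonia (2 called), a pseudocount of 0.1 and the stricter filter gave 0, no filter 381, median-ratio scaling 1, quantile normalization 25, no trend 4, and leaving out a library 0 to 22. Against cultured stem cells (3 called), no filter gave 229, the stricter filter 1, median-ratio scaling 0, quantile normalization 12, the 2 cell types alone 1 (lower, and not among the 3), no trend 5, and leaving out a library 0 to 41. The causes were not tested. With the replicate number as a block the counts were 0, 0 and 2, and the 2 shared 0 genes with the 3. The labels do not say whether the replicate numbers pair the samples. Deviations of same-numbered libraries from the mean of their genotype correlated at 0.264, -0.342 and -0.171. Knockout replicate 2 with wildtype replicate 3 gave 0.378, and knockout replicate 3 with wildtype replicate 2 gave 0.383. Such deviations depend on each other within a genotype, so these values cannot decide whether the samples were paired. BC048609 was called under 9 of 15 alternatives (limma adjusted p 0.00539 to 1), and its difference ran from -1.25 to -0.88. Differences changed sign with quantile normalization for Dmrtb1 (0.013) and Stag3 (0.029), and with the Insl3 term for Sycp1 (-0.052). They also did with a library left out, where Stag3 ran from -0.089 to 0.00057, Espl1 from -0.11 to 0.15, Sycp1 from -0.029 to 0.49 and Prm1 from -0.80 to 0.28. Depth is unknown, so counting error could not be given, and low genes are the least certain.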
